A study of Rattus norvegicus with 10 samples.

Results

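Cells make cholesterol from acetyl groups through the mevalonate route, and the levels of its enzymes are set largely by sterol-regulated transcription factors. The 8 genes described here belong to that system: Hmgcs1, Idi1, Fdps, Fdft1, Sqle, Lss and Cyp51 encode enzymes of the route, and Insig1 encodes a sensor that holds the system back when sterols are plentiful. They were chosen by gene symbol, and a probe was counted to a gene when its transcript accession carries that symbol in RefSeq. All 8 were found, on 14 of the 41012 probes of the array, and all 14 probes passed the filter on dim signals, which asked for a signal well above background on 5 or more of 10 arrays. The genes tested numbered 16765. All 8 genes belong to synthesis and sterol sensing, and none of them encodes an uptake receptor.

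The study asked whether a dam's diet alters gene expression in mammary tumours of her daughters. All animals were Sprague-Dawley rats. The dams ate a Western-style diet, rich in fat and poor in fibre and trace elements, or a control diet, during gestational days 12 to 20 and again over postnatal days 1 to 21. Every daughter, in both groups, ate control diet after weaning and received 50 mg/kg of the alkylating carcinogen N-methyl-N-nitrosourea at 3 weeks of age. Tubular or papillary mammary tumours were measured at 110 days, 5 with a maternal Western-style diet (WD1 to WD5) and 5 with a maternal control diet (CD1 to CD5), with 1 one-colour array per tumour. The labels do not say how the animals were spread over dams and litters. The p-values therefore measure the spread between these tumours only, and the number of arrays limits their precision. Levels are log2 processed signals minus the 75th percentile of the array, so that a level of 0 lies at that percentile. Differences are Western-style minus control.

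The arrays differed in brightness along with the groups: the 75th percentile of spot intensity was 72.8 to 169.9 in the Western-style group and 85.05 to 225.5 in the control group. Of 8 luminal epithelial marker genes 7 were kept, and their mean level lay between 3.76 and 4.51 in the Western-style tumours and between 4.20 and 4.99 in the controls. Markers of other cells differed in mean between the groups, though 0 of their genes passed the test described below. The 4 kept of 8 T cell genes, the 8 kept of 9 macrophage genes and all 9 fibroblast genes had higher means in the Western-style group. Their mean levels ran from 0.95 to 2.63 against 0.29 to 1.24 (T cell), from 2.09 to 4.17 against 2.44 to 3.33 (macrophage) and from 1.78 to 3.56 against 1.28 to 2.88 (fibroblast). Of 6 mast cell genes 5 were lower (-2.01 to 0.61 against -0.37 to 1.02), as were 6 of the 7 kept of 9 proliferation genes (-1.54 to 0.65 against -0.72 to 1.02). The T cell gene Cd4 was well above background on 0 of 10 arrays, and of the adipocyte genes only Cfd was kept. The part of these cells in the results below was not tested. In bulk tumours fewer cells of a type and less RNA per cell cannot be told apart.

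Between the diet groups, 4 of the 8 genes had higher and 4 had lower mean levels in the Western-style tumours. Hmgcs1, Lss, Insig1 and Idi1 were 1.57-fold, 1.54-fold, 1.40-fold and 1.35-fold higher, while Cyp51, Sqle and Fdps were 1.31-fold, 1.20-fold and 1.13-fold lower and Fdft1 differed 1.01-fold. No member passed the test (limma, adjusted over all 16765 genes, lowest adjusted p 0.256 for Cyp51), as 0 of all genes did (0%, lowest adjusted p 0.136). At an unadjusted p under 0.05 stood 1 of the 8, Cyp51, which was lower and did not keep that p under several settings given with its values, where 2599 of all genes did (15.5%, made up of 7.8% higher and 7.71% lower). The groups overlapped for all 8, and did not overlap for 610 of all genes (3.64%). The median difference of the 8 was 0.21 and of all genes 0.01. The share of members called was thus no higher than that of all genes.

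**Figure D1:**
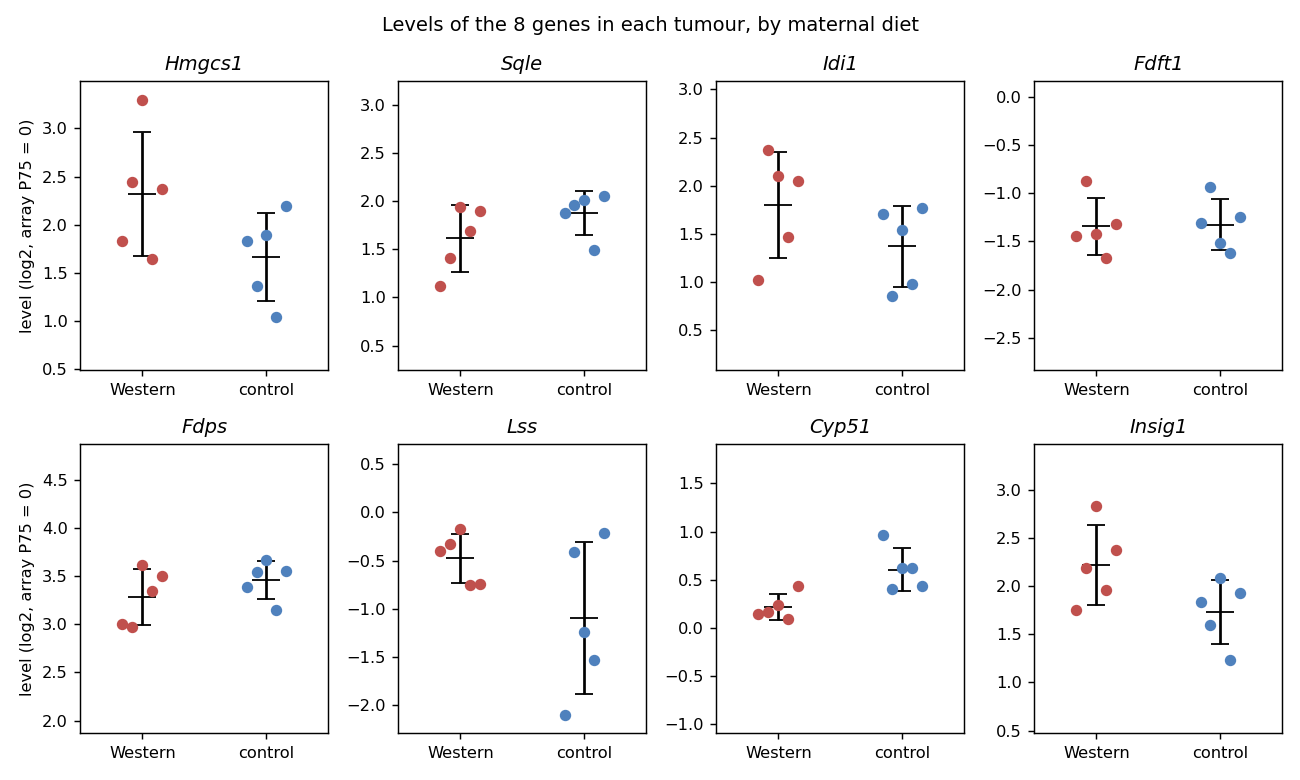
Level of each of the 8 genes in each tumour (points; vertical axis in log2 units with the array's 75th percentile at 0, every panel spanning the same range) by maternal diet, with group mean and SD (bars, n = 5). Hmgcs1, Idi1, Lss and Insig1 had the higher mean in the Western-style group and Cyp51 the lower, and the points of the groups overlap in every panel.

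Hmgcs1 encodes the cytosolic synthase that makes HMG-CoA, the entry to the route. Its level was 1.83, 2.44, 3.30, 1.65 and 2.37 in WD1 to WD5 and 1.83, 1.37, 1.89, 1.04 and 2.20 in CD1 to CD5. WD3 was the highest tumour and CD4 the lowest, and WD1 and WD4 lay among the controls. The means were 2.32 ± 0.64 (SD, n = 5) and 1.67 ± 0.46 (SD, n = 5), a difference of 0.65 (95% confidence interval -0.05 to 1.34; limma, adjusted p 0.349). With array brightness as a covariate the difference was 0.42, and without WD3 it was 0.40. The gene had another probe, A_44_P487240, on which the difference was 0.09, so the size of the Hmgcs1 difference depends on the probe.

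Insig1 encodes an endoplasmic reticulum protein that retains the sterol-sensing complex and whose own gene is a target of that system. Its level was 1.75, 2.19, 2.83, 1.96 and 2.37 in the Western-style tumours and 1.83, 1.60, 2.08, 1.23 and 1.93 in the controls. The highest and lowest tumours were again WD3 and CD4, and all 5 Western-style tumours lay above the control mean. The means were 2.22 ± 0.41 and 1.73 ± 0.33 (SD, n = 5 each), a difference of 0.49 (95% confidence interval -0.01 to 0.99; limma, adjusted p 0.329), which kept its sign within each of the 3 slides (0.37, 0.40 and 0.84). With array brightness as a covariate the Insig1 difference was 0.29, and without WD3 it was 0.34. The 4 Insig1 probes disagreed. The probe used, A_44_P406069, is the brightest; A_44_P547168 differed by 0.52 in the same direction, and A_44_P143886 and A_44_P406074 by -0.30 and -0.25 in the other. The last 2 named followed the used probe poorly over the tumours (Pearson r of 0.03 and -0.10). A_44_P547168 and A_44_P406074 are dim probes that cleared background on 2 of 5 arrays of the Western-style group each, so their differences are uncertain, and A_44_P143886 cleared it on 4 of 5. Averaging all 4 gave a difference of 0.11.

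Idi1 encodes the isomerase that balances the 2 five-carbon building blocks of the route. It was 1.02, 2.37, 2.10, 1.47 and 2.05 in the Western-style tumours and 1.71, 0.86, 1.54, 0.98 and 1.77 in the controls. WD2, WD3 and WD5 lay above all controls, and WD1 lay near the lowest of them. The difference was 0.43 (95% confidence interval -0.19 to 1.05; limma, adjusted p 0.478), and 0.20 on the other probe, A_44_P251944. On the probe used it was 0.30 with brightness as a covariate.

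**Figure D2:**
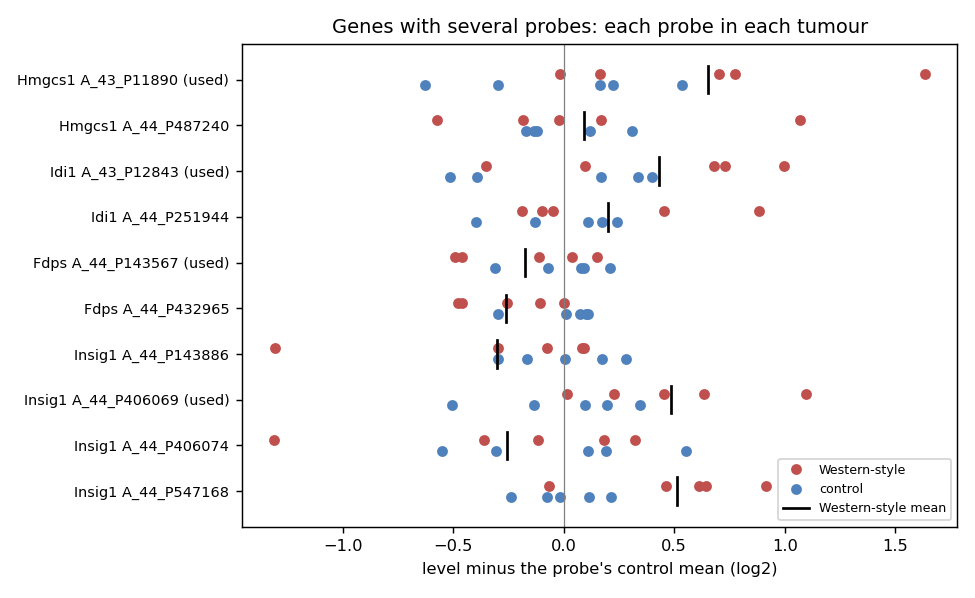
The 4 genes with more than 1 probe: each tumour's level minus the control mean of that probe (horizontal axis, log2 units), with the Western-style group in red, the controls in blue and the Western-style mean as a black line. The Fdps and Idi1 probes differ in the same direction within each gene, while the Insig1 probes lie between -0.30 and 0.52 and the Hmgcs1 probes at 0.65 and 0.09.

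On the probes used, Hmgcs1, Insig1 and Idi1 went together over the tumours. Pearson's r over the 10 tumours was 0.95 between Hmgcs1 and Insig1 (Spearman's rho 0.89), 0.82 between Hmgcs1 and Idi1 (rho 0.95) and 0.80 between Idi1 and Insig1 (rho 0.85). The mean r over all pairs of tested genes was 0.011. Ranked by r with Hmgcs1, Insig1 was number 2 of 16764 genes and Idi1 number 106. Within the groups, as deviations from each group mean, the 3 values were 0.93, 0.77 and 0.74, and as deviations from slide means 0.94, 0.84 and 0.81. The Hmgcs1 and Insig1 relation was 0.82 without WD3 and CD4, the tumours farthest from the Hmgcs1 median, and 0.81 in the authors' deposited matrix values. The relation depends on the probe. Hmgcs1 had r of 0.18 with A_44_P143886, 0.06 with A_44_P406074 and 0.56 with A_44_P547168 of Insig1, and the other Hmgcs1 probe had 0.69 with the Insig1 probe used. The other Idi1 probe had r of 0.46 with the used probe of Hmgcs1 and of Insig1. These values describe 10 arrays, each with 1 scaling shared by all its genes, and carry no p.

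The window of 250 bases before the start site is shown for these 3 genes, because their levels on the probes used varied together from tumour to tumour. Sequences are those of RefSeq on the GRCr8 build, for the 6 of the 8 genes that have an entry in the promoter table used. The windows are chr2:53382054-53382303 on the plus strand (Hmgcs1), chr4:8057770-8058019 on the minus strand (Insig1) and chr17:66547525-66547774 on the minus strand (Idi1). Capitals mark a match, on either strand, to the NF-Y box CCAAT or the Sp1 box GGGCGG, which are bound by factors that act beside the sterol-responsive ones.
Hmgcs1: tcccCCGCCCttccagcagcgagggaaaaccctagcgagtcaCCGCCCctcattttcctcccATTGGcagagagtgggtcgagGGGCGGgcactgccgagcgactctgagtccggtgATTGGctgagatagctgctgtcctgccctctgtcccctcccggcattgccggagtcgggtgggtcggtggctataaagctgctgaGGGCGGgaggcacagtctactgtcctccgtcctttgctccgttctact
Insig1: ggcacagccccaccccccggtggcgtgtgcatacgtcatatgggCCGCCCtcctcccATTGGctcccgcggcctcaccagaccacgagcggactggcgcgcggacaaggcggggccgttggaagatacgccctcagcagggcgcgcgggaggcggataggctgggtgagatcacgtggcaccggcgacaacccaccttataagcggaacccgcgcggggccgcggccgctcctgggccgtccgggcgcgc
Idi1: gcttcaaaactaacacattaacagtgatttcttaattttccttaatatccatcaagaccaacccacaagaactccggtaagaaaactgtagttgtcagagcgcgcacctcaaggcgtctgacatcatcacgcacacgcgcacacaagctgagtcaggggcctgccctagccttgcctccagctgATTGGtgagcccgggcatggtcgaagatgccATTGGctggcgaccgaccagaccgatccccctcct
Hmgcs1 held 2 NF-Y boxes and 4 Sp1 boxes, Insig1 held 1 of each, and Idi1 held 2 NF-Y boxes with 0 Sp1 boxes. Over the 6 genes, 5 held an NF-Y box, against 34% of all 33469 promoter windows of that length, and 5 held an Sp1 box, against 30.5%. The sterol regulatory element SRE-1 and the looser form TCACNCCAC, which every SRE-1 match also fits, were in 0 of the 6 windows and in 0.105% and 0.974% of all windows. That says only that these letters are not in these windows.

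Sqle and Fdps also went together over the tumours. Sqle encodes squalene epoxidase, a controlling step after the branch towards sterols, and Fdps encodes the synthase that makes farnesyl diphosphate, the precursor of sterols and of prenyl groups. Sqle was 1.12, 1.41, 1.94, 1.69 and 1.90 in the Western-style tumours and 1.88, 1.96, 2.01, 1.49 and 2.05 in the controls. Fdps was 3.00, 2.97, 3.61, 3.35 and 3.50 against 3.39, 3.54, 3.67, 3.15 and 3.55. In both genes WD1, WD2 and CD4 were the 3 lowest tumours and the other 7 lay close together. Pearson's r between the genes was 0.94 (rho 0.93), 0.92 without WD1 and WD2, 0.94 within the groups, and 0.73 in the authors' deposited matrix values. Of 16764 genes ranked by r with Sqle, Fdps was number 1. The diet differences were -0.27 for Sqle (95% confidence interval -0.68 to 0.15; limma, adjusted p 0.515) and -0.18 for Fdps (-0.55 to 0.20; adjusted p 0.640), and the other Fdps probe, A_44_P432965, gave -0.26 and the same r of 0.94 with Sqle. Without WD1 the Sqle difference was -0.14, and the Fdps difference was -0.11 without WD1 and -0.10 without WD2. Within slides 1, 2 and 3 the Sqle difference was -0.693, -0.215 and 0.215. The Fdps difference was -0.556, -0.132 and 0.225. Both signs thus turned in slide 3, which held 1 Western-style tumour and 2 controls.

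Over all 10 tumours the pair was only loosely tied to Hmgcs1, Insig1 and Idi1. How loosely depended on the deviations and the tumours used. Pearson's r over all 10 ran from 0.09 (Idi1 with Fdps) to 0.37 (Fdps with Insig1). As deviations from the group means the same 6 values ran from 0.30 to 0.83, the highest between Sqle and Insig1, and as deviations from slide means from -0.11 to 0.17. Without CD2 and WD2, the tumours farthest from the Idi1 median, Idi1 had r of 0.81 with Sqle and with Fdps, so those low values rest on these tumours. WD2 shows the divergence: its Idi1 level was the highest of all tumours and its Fdps level the lowest. Without WD3 and CD4, the tumours farthest from the Hmgcs1 median, Hmgcs1 had r of -0.10 with Sqle and -0.25 with Fdps. Without WD1 and WD2 these values were 0.55 and 0.62.

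**Figure D3:**
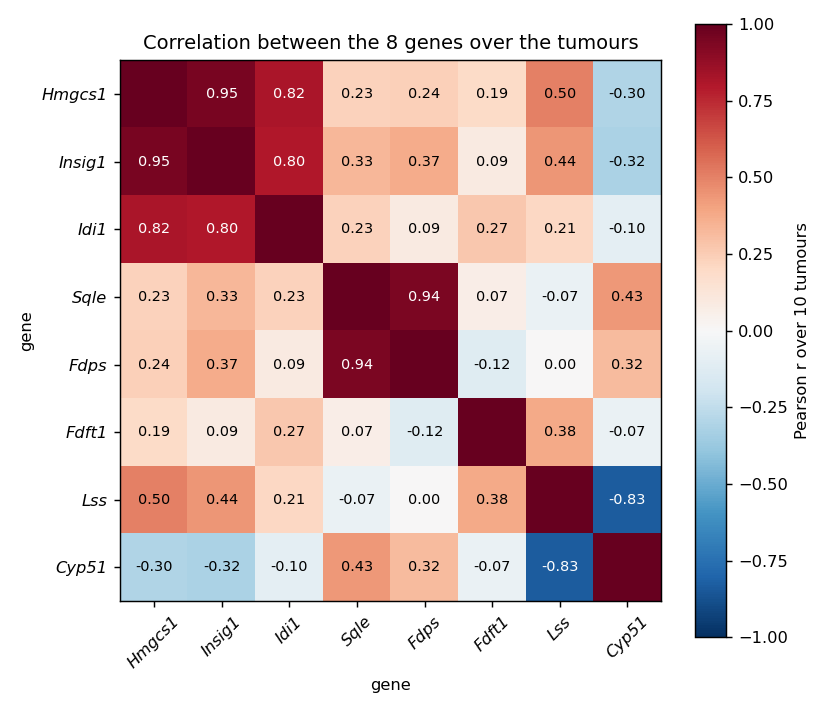
Pearson's r over the 10 tumours for each of the 28 pairs of the 8 genes (colour and number; both axes list the genes). The block of Hmgcs1, Insig1 and Idi1 holds values of 0.80 to 0.95, Sqle and Fdps share 0.94, and Lss and Cyp51 stand at -0.83.

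Fdft1, which encodes squalene synthase and so commits farnesyl diphosphate to sterols, differed least. It was -1.44, -0.87, -1.42, -1.67 and -1.32 in the Western-style tumours and -1.31, -0.94, -1.52, -1.62 and -1.25 in the controls, with WD2 and CD2 the highest. The difference was -0.02 (95% confidence interval -0.43 to 0.39; limma, adjusted p 0.969), and its sign turned under several settings. Its r with the mean of the other 7 genes was 0.26.

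Lss and Cyp51 encode enzymes that act in sequence, lanosterol synthase closing the sterol rings and the cytochrome P450 Cyp51 removing a methyl group from lanosterol, and they ran in opposite directions. Lss was -0.40, -0.33, -0.17, -0.75 and -0.74 in the Western-style tumours and -2.10, -0.41, -1.24, -1.53 and -0.21 in the controls. The controls fell into 3 low tumours (CD1, CD3 and CD4) and 2 that lay among the Western-style tumours. The SD was 0.79 in the controls and 0.26 in the Western-style group (n = 5 each). The difference was 0.62 (95% confidence interval -0.11 to 1.34; limma, adjusted p 0.387), 0.37 without CD1 and 0.23 in the authors' deposited matrix values. Within slides 1, 2 and 3 it was 0.04, 0.27 and 1.08.

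Cyp51 was 0.14, 0.17, 0.24, 0.09 and 0.44 in the Western-style tumours and 0.96, 0.40, 0.62, 0.62 and 0.43 in the controls. Only WD5 reached the range of the controls, and all 5 Western-style tumours lay below the control mean. The means were 0.22 ± 0.13 and 0.60 ± 0.22 (SD, n = 5 each), a difference of -0.39 (95% confidence interval -0.71 to -0.06; limma, unadjusted p 0.0227, adjusted p 0.256). The difference was negative within each slide (-0.24, -0.36 and -0.35), with slide as a block (-0.32) and with array brightness as a covariate (-0.36), and ran from -0.44 to -0.30 when each tumour was left out in turn. It was -0.23 in the authors' deposited matrix values and -0.24 with normexp background correction. Its unadjusted p was over 0.05 with normexp (0.182), with brightness as a covariate (0.0867), without CD1 (0.0641), with the replicate block (0.054), without a filter (0.0523) and without WD4 (0.0508). The gene has 1 probe. Pearson's r between Lss and Cyp51 was -0.83 (rho -0.60), -0.48 without CD1 and CD4, the tumours farthest from the Lss median, and -0.80 without CD1 and WD4, the farthest from the Cyp51 median.

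**Figure D4:**
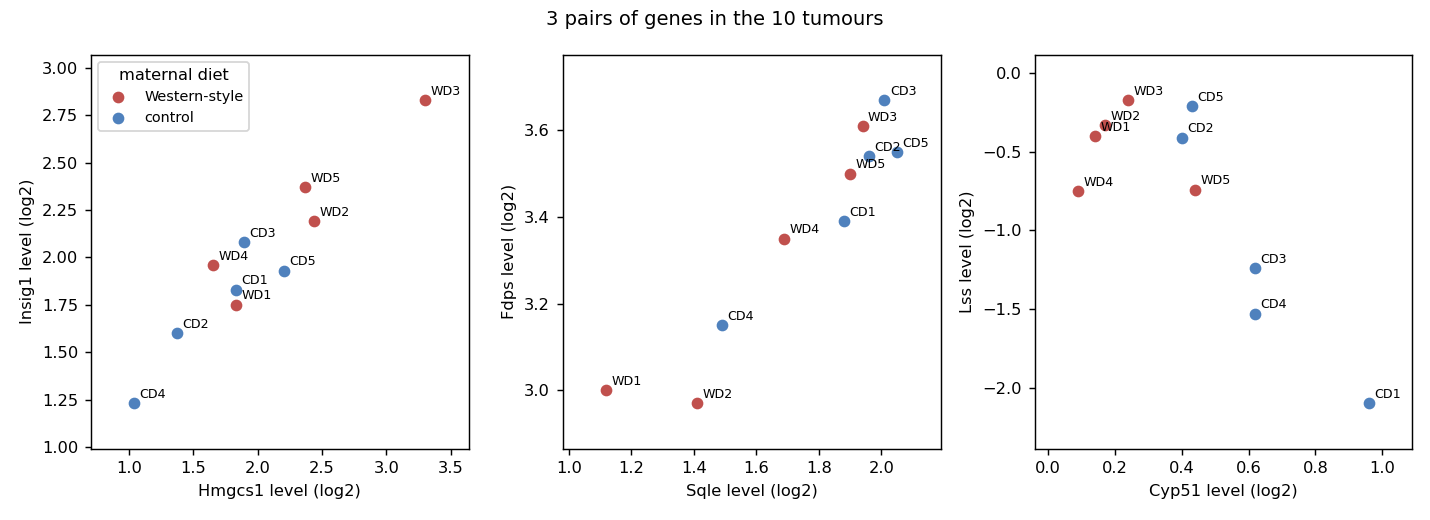
Levels (log2, array 75th percentile at 0) of 3 pairs of genes in the 10 tumours, with Western-style in red and control in blue. Hmgcs1 with Insig1 runs from CD4 to WD3, Sqle with Fdps from WD1 and WD2 to CD3 and CD5, and in the right panel CD1 combines the highest Cyp51 with the lowest Lss level.

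The windows before the start sites of this pair, chr20:12118231-12118480 on the minus strand (Lss) and chr4:30991443-30991692 on the plus strand (Cyp51), are shown for the same motifs because the genes diverge.
Lss: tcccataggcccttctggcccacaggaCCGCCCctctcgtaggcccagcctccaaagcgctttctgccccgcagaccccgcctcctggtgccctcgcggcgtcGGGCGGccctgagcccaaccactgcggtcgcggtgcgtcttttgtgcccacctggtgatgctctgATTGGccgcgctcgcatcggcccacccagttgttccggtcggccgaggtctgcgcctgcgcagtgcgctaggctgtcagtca
Cyp51: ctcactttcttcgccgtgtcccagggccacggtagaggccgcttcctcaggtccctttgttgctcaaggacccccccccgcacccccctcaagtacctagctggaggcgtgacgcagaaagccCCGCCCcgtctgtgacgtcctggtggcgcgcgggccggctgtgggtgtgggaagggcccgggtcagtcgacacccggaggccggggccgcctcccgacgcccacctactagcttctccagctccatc
Lss held 1 NF-Y box and 2 Sp1 boxes. Cyp51 held 1 Sp1 box and was the only one of the 6 genes with 0 NF-Y boxes in this window.

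The tumours can be ordered by the 8 genes, each centred on its own mean. The mean of the centred levels was 0.43 in WD3, 0.20 in WD5, 0.19 in CD5 and 0.17 in WD2, and it was -0.14 in WD4, -0.24 in WD1 and -0.45 in CD4. WD5 had 8 of 8 genes above their mean and CD5 7, while WD1, WD4 and CD4 had 1 each. CD4 was among the 3 lowest tumours for 7 of the 8 genes. High and low tumours were found in both groups, whose mean values were 0.08 ± 0.28 and -0.08 ± 0.23 (SD, n = 5 each). The levels were centred and not scaled, so genes that vary more weigh more in this mean. Its r was 0.92 with Hmgcs1, 0.90 with Insig1 and 0.81 with Idi1. With Lss, Sqle, Fdps and Fdft1 it was 0.54, 0.51, 0.47 and 0.38, and with Cyp51 -0.22. Each gene is part of this mean, which raises its r. With the mean of the other 7 genes r was 0.84 for Hmgcs1, 0.85 for Insig1 and 0.68 for Idi1. For Lss, Sqle, Fdps and Fdft1 it was 0.26, 0.38, 0.36 and 0.26, and for Cyp51 -0.34. Likeness to the mean is therefore mainly likeness to Hmgcs1, Insig1 and Idi1.

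The rest of the route was measured by 13 further enzymes, 11 of them kept. With the 7 enzymes above, 18 of 20 were measured, 7 higher and 11 lower in the Western-style tumours, with a median difference of -0.05. Of these, 0 passed the test (limma, adjusted over all genes). At an unadjusted p under 0.05 stood 2 of the 18, both lower, beside 15.5% of all genes (7.71% lower). The share of enzymes called was thus no sign of a change in the route. Those 2 were Cyp51 and Sc5d, a desaturase near the end of the route, which was 1.51-fold lower (-0.59, 95% confidence interval -1.06 to -0.12; limma, adjusted p 0.238). Sc5d was -0.70, -0.97, -0.28, -1.53 and -0.56 in the Western-style tumours and -0.29, -0.26, -0.06, -0.19 and -0.27 in the controls, so that WD3 alone lay inside the control range. The Sc5d difference was -0.28 with normexp background correction and -0.28 in the authors' deposited matrix values. Mvd and Ebp, a decarboxylase and an isomerase of the route, were 1.26-fold and 1.28-fold higher (limma, adjusted p 0.372 and 0.410). Their differences of 0.33 and 0.35 were both 0.16 with brightness as a covariate. Of these 11 enzymes Acat2, which condenses the first acetyl groups, followed the 8 genes most closely (r of 0.84 with their mean, percentile 99.6 of all genes), and Tm7sf2 least (-0.21).

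**Figure D5:**
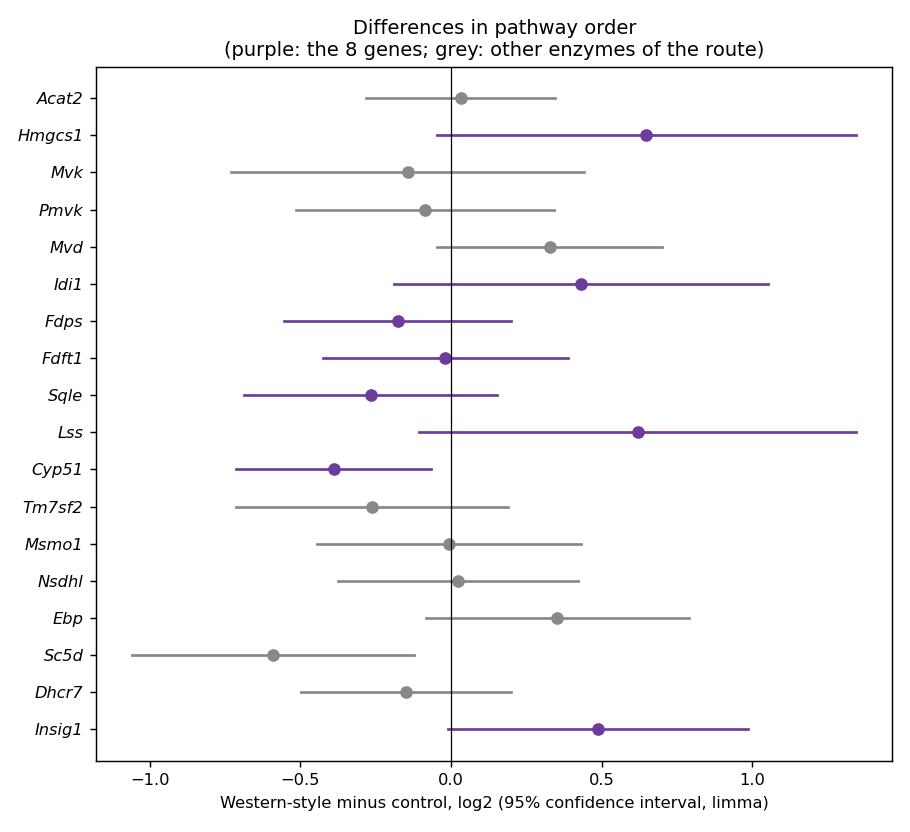
Difference between the diet groups (horizontal axis, Western-style minus control, log2; points with 95% confidence intervals from limma) for enzymes in the order of the route, with the sensor Insig1 last. Intervals that exclude 0 belong to Cyp51 and Sc5d, before adjustment over all genes. Of all genes tested 15.5% had an unadjusted p under 0.05 (limma).

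Of 9 sterol sensing genes 6 were kept, 3 with a higher and 3 with a lower mean in the Western-style tumours (median -0.02). Srebf2, the transcription factor that drives the route, differed by 0.05 (95% confidence interval -0.57 to 0.68; limma, adjusted p 0.943), with a sign that turned without WD2, WD3, WD4 or CD4. Nr1h3, the liver X receptor that answers to oxysterols, was 1.39-fold higher (limma, adjusted p 0.275), a difference of 0.48 that was 0.26 with brightness as a covariate. Insig2, the partner of Insig1, was 1.42-fold lower, the direction opposite to the used Insig1 probe (limma, adjusted p 0.299). Its difference of -0.51 was -0.24 with brightness as a covariate, and it cleared background on 2 of 5 arrays of the Western-style group. Mbtps1, a protease that activates the factor, was 1.32-fold lower (adjusted p 0.324), a difference of -0.40 that was -0.07 with brightness as a covariate. Scap, the escort of the factor, followed the mean of the 8 genes with r of 0.79 (percentile 99.1).

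Of 12 uptake and lysosomal genes 9 were kept, 4 higher and 5 lower (median -0.04). Npc1, which exports cholesterol from lysosomes, was 1.24-fold lower (limma, adjusted p 0.357) and ran against the mean of the 8 genes (r of -0.76, percentile 0.9). The Npc1 difference of -0.31 was -0.17 with brightness as a covariate. Lipa, the lysosomal lipase, was 1.33-fold higher (limma, adjusted p 0.401). Of 10 efflux, storage and oxidation genes 7 were kept, 4 higher and 3 lower (median 0.05). Lcat, which esterifies cholesterol, was 1.67-fold higher (adjusted p 0.186) with 5 of 5 tumours above the control mean. Its difference of 0.74 was 0.23 with normexp and 0.08 in the authors' deposited matrix values. Ch25h was 1.55-fold higher (adjusted p 0.586) and Cyp27a1 1.26-fold lower (adjusted p 0.471); both make oxysterols. The Ch25h difference of 0.63 was 1.19 without WD2, 0.36 without WD4 and 0.16 in the authors' deposited matrix values, and the Cyp27a1 difference of -0.33 was -0.09 with brightness as a covariate and -0.12 in the matrix values.

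The isoprenoid branch, which leads to dolichol, ubiquinone and prenylated proteins, had 3 of 8 kept genes higher and 5 lower (median -0.19). That median was -0.03 with normexp, -0.07 in the authors' deposited matrix values and 0.03 over probes well above background on all 10 arrays. Pggt1b and Fnta, subunits of prenyl transferases, had means 1.27-fold (adjusted p 0.277) and 1.23-fold (adjusted p 0.347) below the controls, and Coq2, of ubiquinone synthesis, was 1.56-fold lower (adjusted p 0.288) but cleared background on 2 of 5 arrays of the Western-style group. In fatty acid synthesis, which answers to a related factor, 1 of 8 kept genes was higher and 7 lower (median -0.10). The 7 include genes near 0, such as Scd (-0.01) and Fads2 (-0.08). The list median was 0.01 with normexp and ran from -0.20 to 0.02 with each tumour left out. Fasn was 1.43-fold lower (-0.51, adjusted p 0.228), Acly 1.17-fold higher (adjusted p 0.585) and Fads1 1.43-fold lower (adjusted p 0.690). With each tumour left out Fads1 ran from -0.91 (without WD1) to -0.07 (without WD3), and Acly from 0.12 (without CD4) to 0.31 (without WD1); Acly was 0.06 with brightness as a covariate. Over the tumours Elovl6 and Acly followed the mean of the 8 genes (r of 0.81 and 0.74), and Fads1 and Fads2 ran against it (-0.76 and -0.66). In all these lists 0 genes passed the test (limma, adjusted over all genes), and all medians are beside 0.01 for all genes.

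The genes most like the 8 over the 10 tumours were ranked by Pearson's r with the mean of their centred levels, among the 16757 other genes. The mitochondrial gene Chchd6 led with 0.94 (rho 0.89). It was 1.23, 1.80, 2.19, 1.42 and 1.84 in WD1 to WD5 and 1.66, 1.21, 1.57, 1.04 and 1.92 in CD1 to CD5. Rab40b followed with 0.92 and C1qtnf6 with 0.91, and among the next were Urm1, Pelp1, Ly6g6e and Snrpa, each with 0.89. The threonyl-tRNA synthetase gene Tars1 was the most opposed at -0.94 (rho -0.98), before Sdhaf2 (-0.89), Gga2 (-0.88) and Tspan8 (-0.87). In all 11 genes outside the 8 reached 0.9. Marker lists had r with the same mean of 0.55 (fibroblast), 0.54 (mast cell), 0.40 (endothelial), 0.36 (T cell), 0.34 (proliferating cell), 0.17 (macrophage), 0.10 (the adipocyte gene Cfd), -0.21 (milk secretion), -0.24 (basal epithelial) and -0.31 (luminal epithelial). Without the 2 tumours farthest from each list's median these were 0.17, 0.42, 0.13, 0.09, 0.19, 0.59, 0.00, -0.59, -0.33 and -0.32. As deviations from the group means the mast cell list had r of 0.90 and the fibroblast list 0.46. The mast cell genes differed among themselves. Mcpt1 had 0.92, Tpsb2 0.90, Cpa3 0.85, Hdc 0.80 and Ms4a2 0.65, but Kit had -0.64. The part of these cells in the likeness of the 8 genes was not tested. Array brightness had r of -0.34 with that mean. These are descriptions over 10 tumours.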

How the data were processed

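RNA of 10 mammary tumours (200 ng each) was labelled with Cy3 and read on Agilent rat arrays, 1 array per tumour. Per the file headers the arrays were read with Agilent Feature Extraction 11.5.1.1 (15.5 in the submitters' processing notes), and the array annotation is on rn4. The deposited array files hold intensity values per spot: processed signals, background-subtracted and not scaled between arrays, and median spot and local background signals. The deposited matrix holds log2 values; its rows follow the spots in file order (Spearman correlation of 1 with each array's median signals), and how it was normalized is not given here.

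Of 45018 spots 1639 were controls. Levels were log2 processed signals less the array's own 75th percentile over non-control spots. Outlier-marked spots were dropped, and repeat spots of a probe averaged. Probes well above background on at least 5 of 10 arrays were kept, and of several probes of a gene the one of highest mean level was used. Names came from RefSeq (GRCr8) and matched 17502 of 41012 probes. The diet groups were set against each other with limma 3.58.1 (R 4.3.3) (Benjamini-Hochberg, adjusted p under 0.05). Tested on simulated data of 16765 genes, it recovered 46% of those given a 2-fold change and 87% of those given a 4-fold change, with 10 false calls among 143. The simulated noise was drawn independently for each gene, while differences in brightness or cell content are shared by many genes. These rates may therefore not hold for the real arrays. Plots were drawn with matplotlib 3.10.9. Each of the 3 slides held both groups and was scanned once, so a slide stands for a scan as well.

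The members and lists were chosen with earlier results of these data known. Named genes were the 8 members, Srebf1, Srebf2 and Fasn where kept, the 3 genes of smallest p of each other list of the sterol and lipid routes, and the 8 most and 4 least alike genes by Pearson's r with the members' mean; other names were chosen after their values were seen. Some genes that this rule takes in are not reported here. No list was tested. Alternatives were another background correction, scaling, filter, probe rule, the deposited matrix, slide or replicate number as a block, brightness as a covariate, and leaving out each tumour. The array files give no mean spot signal, so the normexp correction used median signals; this and the correlations on other probes of the members were chosen after seeing the data.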

Additional observations from a re-analysis of the deposited data

Results flagged for a closer look

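The 5 tumours of each group were searched, for the 8 genes and the pathway genes named for their difference, for a tumour far from the others, in 56 sets, where chance flags about 1 in 20. Ch25h was -3.75 in WD2, where the nearest Western-style tumour was at -1.29. Ebp was 3.83 in WD1, where the nearest was at 4.24. For the 8 genes themselves no tumour stood apart in this way.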

How the results depend on the processing

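The count of genes past the threshold was 0 under all alternatives, and 0 of the 8 genes passed under any (limma, adjusted p over alternatives 0.135 to 1). Genes at an unadjusted p under 0.05 numbered 2599 (1307 higher, 1292 lower), 493 with normexp (347 and 146), 960 with brightness as a covariate, 851 higher and 1434 lower with the deposited matrix, 331 and 3304 with the array median as scale, and 5995 and 1055 without a filter. Without WD1, 2853 of 16765 genes had such a p, among them 4 of the 8 (Hmgcs1, Idi1, Cyp51 and Insig1). The lowest adjusted p of a member was 0.23 there (limma). Over all settings 0 to 4 of the 8 genes had such an unadjusted p. Their median difference was -0.05 with the array median as scale, which shifted all genes to a median of -0.24, so that it stood 0.19 above that, 0.05 with all kept probes averaged, 0.21 against 0.34 for all genes without a filter (members below all genes), and 0.10 to 0.30 with each tumour left out. All members but Fdft1 kept their sign under these alternatives, which include no single slide and no single other probe. Sqle and Fdps turned within slide 3 (0.215 and 0.225). The Insig1 probes A_44_P143886 and A_44_P406074 gave -0.30 and -0.25. Fdft1 was 0.02 with normexp, 0.01 with the matrix, 0.04 with brightness, and -0.14 to 0.08 with each tumour left out (0.06 without WD4, 0.08 without CD2). Srebf2 was -0.20 with the array median, -0.22 with brightness and -0.11 to 0.24 with tumours left out (-0.11 without WD2, -0.01 without WD3, -0.02 without WD4, -0.09 without CD4). Acly was -0.03 with the array median, and Fads1 was 0.18 with brightness. The median r of the 28 member pairs was 0.23, 0.35 on deviations from slide means, 0.12 with the matrix, and 0.10 to 0.36 with each tumour left out (0.36 without WD2, 0.35 without CD2, 0.10 without CD4). The cause of these changes was not tested. Motif counts kept their values in the longer window. Replicate numbers did not pair the tumours (correlations of same-numbered deviations -0.02 to 0.16); with the replicate block the count of genes past the threshold was 0 and the median of the 8 genes 0.21. Signal over background limits Stard4, which was not kept.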
